A study of Arabidopsis thaliana with 7 samples.

Results

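The 56 genes described here were chosen by their measured counts in RNA sequencing of Arabidopsis thaliana seedlings. Each had 3 counts or fewer in both wild type (WT) libraries and at least 0.5 CPM (counts per 1000000 counts of the library) in all 5 mutant libraries, and chloroplast and mitochondrial gene ids were left out. They are 56 of the 27445 nuclear genes in the count tables, and 56 of the 6005 nuclear genes that had 3 counts or fewer in both WT libraries. Because the contrast of the mutants with WT chose them, their difference from WT, calls included, is given only as a description.

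The libraries came from 18-day-old seedlings grown in 16 h light and 8 h dark, and polyadenylated RNA was sequenced. The 3 groups were WT of the Col-0 background with 2 libraries, hot3-2 with 3 libraries and hot3-3 with 2 libraries. Both mutants carry a T-DNA insertion in HOT3 (AT1G76810) and nothing else set them apart from WT in the labels, so each allele stands for a single insertion line. Nothing in the labels says whether libraries of a group came from separately grown plants, so the tests measure only the spread between these libraries. Whole seedlings hold many cell types, and more cells of a type cannot be told apart from more RNA per cell.

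HOT3 encodes eIF5B1, the factor that joins the large ribosomal subunit to the small subunit at the start codon. A gene can be silent in a seedling because it is used only in another organ or stage, because it waits for a stress signal, or because its chromatin is kept shut, as in pericentromeric regions rich in transposable elements. In plants, large families such as F-box genes, which encode the substrate adaptors of SCF ubiquitin ligases, hold many members that are hardly transcribed in leaves.

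The libraries held 14090881 to 34696683 counts in nuclear and organellar genes, so 3 counts corresponded to 0.187 and 0.145 CPM in the WT libraries, and 0.5 CPM was reached with 8 to 18 counts in the mutant libraries. HOT3 itself stood at 173 and 170 CPM in WT, at 74.8, 96.7 and 90.4 CPM in hot3-2, and at 202 and 274 CPM in hot3-3. A T-DNA insertion need not lower the count over a whole gene and the tables give no reads by position, so the hot3-3 labels could not be checked with it. The summed level of 6 leaf photosynthesis genes was 43100 to 44120 CPM in WT, 29030 to 29610 CPM in hot3-2 and 27500 to 28220 CPM in hot3-3. Such levels go with green tissue and cannot by themselves check the seedling label.

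Most genes that were silent in WT were also below the limit in the mutants. Of the 6005, 5746 reached 0.5 CPM in none of the 5 mutant libraries, 91 in 1 library, 47 in 2, 36 in 3, 29 in 4 and 56 in all 5. The group is thus 0.933% of the WT-silent genes. The opposite pattern, 3 counts or fewer in all 5 mutant libraries and 0.5 CPM or more in both WT libraries, was met by 3 genes (AT1G13608, AT2G24692 and AT4G16740), though that rule asks for silence in more libraries.

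**Figure D1:**
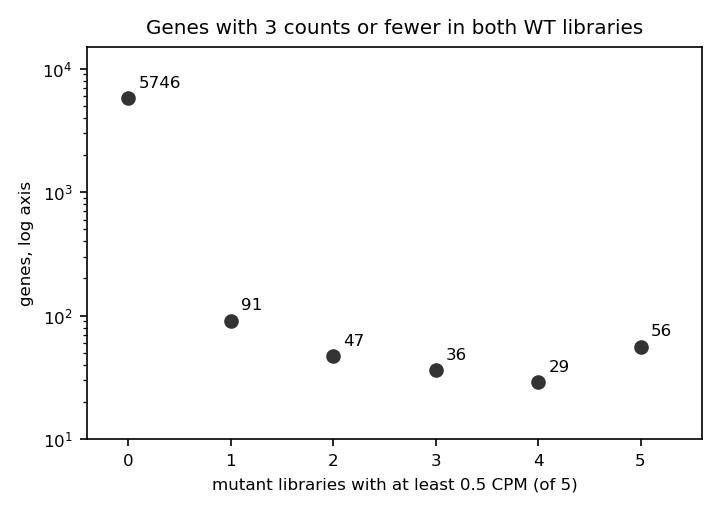
The number of genes with 3 counts or fewer in both WT libraries (log axis) against the number of mutant libraries in which they reached 0.5 CPM. Most genes, 5746, sit at 0 libraries, and the last point holds the 56 genes described here.

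At the lower edge of the rule, ZFP10, a C2H2 zinc finger gene, had 18 counts (0.519 CPM) in its lowest mutant library, hot3-3 replicate 2. Just outside was AT5G09876 with 12 counts (0.497 CPM) in hot3-2 replicate 1. On the WT side 16 of the 56 genes had a WT library at 3 counts, and 14 further genes missed the group because their higher WT library held 4 counts. The largest of those 14 was AT2G18190, with 4 and 2 counts in WT, then 504, 326 and 456 counts in the hot3-2 libraries and 1083 and 1630 counts in the hot3-3 libraries.

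The rule used every library, so no library was left to test the rule. Choosing on some libraries and reading the others is given only as a description, with no share over all genes beside it. Choosing on WT replicate 1 and the hot3-2 libraries alone gave 107 genes, and 92 of them were also at 0.5 CPM or more in both hot3-3 libraries, while 63 were at 3 counts or fewer in WT replicate 2. Choosing on WT replicate 2 and the hot3-3 libraries alone gave 172 genes, of which 78 reached 0.5 CPM in all 3 hot3-2 libraries and 137 stayed at 3 counts or fewer in WT replicate 1. A total of 81 WT-silent genes reached the limit in both hot3-3 libraries but not in all hot3-2 libraries, and 31 of these reached it in no hot3-2 library. The converse, all hot3-2 libraries but not both hot3-3 libraries, held for 7 genes.

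The 56 genes were low in the mutants too. Their summed level was 4.00 and 3.49 CPM in WT, 148, 163 and 154 CPM in hot3-2, and 248 and 237 CPM in hot3-3, and the median gene stood at 1.496 CPM in hot3-2 and 2.64 CPM in hot3-3. Per kilobase of exon, the 55 genes longer than 100 bases had a median level of 1.61 (hot3-2) and 2.24 (hot3-3) CPM per kb, against 8.35 and 8.75 over all 20795 genes tested. The per kb level ran from 0.186 for HAC2 to 36.3 for AT1G75945 in hot3-2, and from 0.332 for HAC2 to 25.6 for AT1G30170 in hot3-3. The coefficient of variation between libraries of an allele had a median of 18.1% in hot3-2 and 8.66% in hot3-3. It was 11.2% and 7.03% for all tested genes between the lowest and highest member mean (0.617 to 16.7 CPM in hot3-2). Those genes were not matched to the members in level within that range, so the 2 medians do not compare genes of like level.

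In WT, 12 of the 56 had no count in either library and 44 had 1 to 6 counts in all. For the 12, only a lower bound of the fold can be given, against a floor of 3 counts over the WT group (0.0819 CPM): it ran from at least 7.81-fold higher (AT3G25719) to at least 205-fold higher (AT1G75945) in hot3-2, and from at least 16.3-fold (AT3G25719) to at least 428-fold higher (AT1G30170) in hot3-3. For the other 44, the ratio of pooled CPM had a median of 27.7 in hot3-2 and 39.7 in hot3-3. The lowest ratio in hot3-2 was 4.12 for AT2G43480, a peroxidase family gene, with a 95% exact counting interval of 1.73 to 11.9. Such intervals cover counting error only. In the fit over all genes (edgeR's quasi-likelihood test, Benjamini-Hochberg adjusted P below 0.01 and at least a doubling) 56 of the 56 were called higher in hot3-2, where 7.8% of all tested genes were called higher and 3.88% lower. In hot3-3 55 of the 56 were called higher, ZFP10 being the exception, where 9.63% of all tested genes were called higher and 4.91% lower. The rule fixed these counts.

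**Figure D2:**
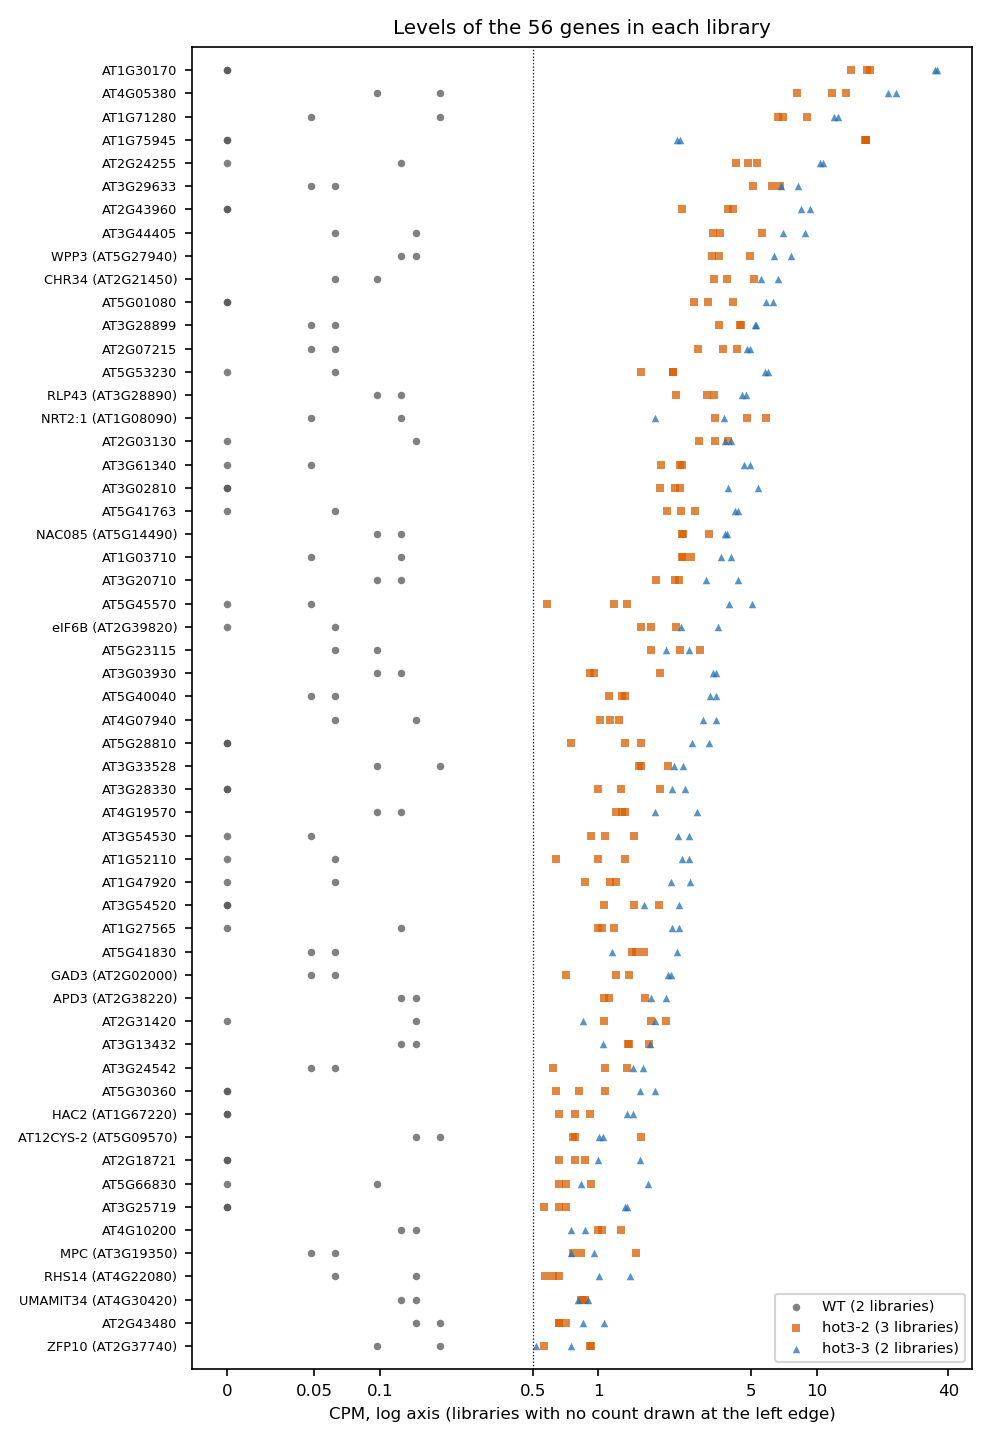
The level of each of the 56 genes in the 7 libraries (CPM, log axis, 1 row per gene, points coloured by group; libraries with no count are drawn at the left edge). WT points lie at 3 counts or fewer, and the mutant points reach from 0.519 CPM (ZFP10) to 35.3 CPM (AT1G30170).

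DUF295 is a plant family of unknown function in which many members carry an F-box, and 3 of the 56 belong to it. The highest of the 56 in hot3-3 was AT1G30170 (hypothetical protein, DUF295; chromosome 1, bases 10607888 to 10609618, minus strand), which had no count in either WT library. It stood at 14.3, 17.0 and 17.4 CPM in hot3-2 and at 35.3 and 34.9 CPM in hot3-3, and the alleles did not overlap. AT5G53230 (chromosome 5, 21598848 to 21600008, plus strand) had 1 and 0 counts in WT, 2.19, 1.56 and 2.19 CPM in hot3-2 and 5.78 and 5.995 CPM in hot3-3. Its hot3-3 to WT ratio of 217 was the highest among genes with a WT count, but rests on that single count (95% counting interval 38.6 to 8590). The other DUF295 member, AT5G66830, which also carries an F-box, had 0 and 2 counts in WT and lay between 0.662 and 1.70 CPM in the mutants, with overlapping alleles.

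The tables list 70 genes annotated DUF295, of which 53 had 3 counts or fewer in both WT libraries and 25 had no count in any library. Outside the 56, 16 were abundant enough to be tested, and 6 of these 16 (37.5%) were called higher in hot3-2 and 9 (56.3%) in hot3-3, against 7.8% and 9.63% of all tested genes, with 1 called lower in each allele. Without WT replicate 2 the hot3-2 count was 3. AT1G30160, which overlaps the last 57 bases of AT1G30170 on the other strand, rose from 1.19 and 0.630 CPM in WT to 8.07, 9.08 and 7.75 CPM in hot3-2, and to 11.9 and 11.4 CPM in hot3-3 (log2 fold changes 3.27 and 3.70, edgeR adjusted P = 6.48e-06 and 3.39e-06). AT5G53240, the neighbour of AT5G53230, had no count in WT and was called higher in hot3-3 (0.548 and 0.922 CPM, edgeR adjusted P = 0.00543) but was not called in hot3-2 (0.0828, 0.568 and 0.408 CPM, adjusted P = 0.0286). A DUF295 gene could also go the other way: AT1G05540 fell from 3.06 and 2.28 CPM in WT to 0.497, 0.923 and 0.561 CPM in hot3-2, and to 0.848 and 0.519 CPM in hot3-3.

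With AT5G66830, 5 of the 56 are annotated as F-box genes. AT2G24255 (F-box/kelch-repeat, 2 and 0 counts in WT) stood at 4.84, 5.32 and 4.28 CPM in hot3-2 and 10.7 and 10.4 CPM in hot3-3. AT3G61340 (0 and 1 counts in WT) stood at 2.36, 2.41 and 1.94 CPM in hot3-2 and 4.64 and 4.96 CPM in hot3-3. For both genes each hot3-3 library lay above each hot3-2 library, an order that 29.9% of all tested genes showed. AT3G20710 and AT3G28330 were lower, between 0.994 and 2.34 CPM in hot3-2 and between 2.16 and 4.34 CPM in hot3-3. Of all 657 genes annotated F-box, 453 (69.0%) were at 3 counts or fewer in WT and 262 had no count in any library. Among the 196 tested F-box genes outside the 56, 25 (12.8%) were called higher in hot3-2 and 41 (20.9%) in hot3-3, against 7.8% and 9.63% of all tested genes. Lower calls were made for 3 and 5 of them, where 3.88% and 4.91% of all tested genes were called lower.

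Several of the 56 belong to families that act on RNA or on the ribosome. Relatives outside the 56, here and in the next paragraphs, were looked up after the members' values were known. AT1G71280 is annotated as a DEAD-box RNA helicase, a class of ATPases that unwind or remodel RNA. It had 3 and 1 counts in WT, 6.67, 9.01 and 6.99 CPM in hot3-2 and 12.46 and 11.96 CPM in hot3-3. Of its 31-base words 59.3% occur in a related helicase gene, AT1G71370, which stood at 0.125 and 0 CPM in WT, 0.290 to 0.497 CPM in hot3-2, and 1.30 and 0.894 CPM in hot3-3. Only uniquely mapped pairs were counted, so pairs that fit both genes equally would be left out of both counts. AT2G43960 carries a SWAP/surp domain, found in splicing proteins, and had no count in WT, 2.40, 4.12 and 3.93 CPM in hot3-2 and 9.27 and 8.45 CPM in hot3-3. AT4G07940, annotated as a putative CWC22-like splicing factor, had 1 and 3 counts in WT, 1.24, 1.14 and 1.02 CPM in hot3-2 and 3.44 and 3.03 CPM in hot3-3. In all 3 genes the hot3-3 libraries lay above the hot3-2 libraries, as they did in 29.9% of all tested genes.

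The ribosome-related members were AT5G40040, annotated as a 60S acidic ribosomal protein (the stalk P-proteins that recruit elongation factors), AT2G03130 (ribosomal protein L12 or Clp protease adaptor) and eIF6B, a copy of the factor that binds the 60S subunit and keeps it from joining the 40S too early. AT5G40040 had 1 count in each WT library, 1.33, 1.28 and 1.12 CPM in hot3-2 and 3.24 and 3.46 CPM in hot3-3. AT2G03130 had 0 and 3 counts in WT, 2.90, 3.41 and 3.93 CPM in hot3-2 and 4.04 and 3.80 CPM in hot3-3, so its alleles overlapped. eIF6B had 1 and 0 counts in WT, 1.57, 2.27 and 1.73 CPM in hot3-2 and 3.54 and 2.39 CPM in hot3-3. Its widely expressed relative eIF6A was at 69.5 and 66.5 CPM in WT, 221, 215 and 216 CPM in hot3-2 and 261 and 259 CPM in hot3-3, a log2 fold change of 1.72 and 1.92. The ribosomal protein genes as a class were also higher: among the 317 tested ones outside the 56, 181 (57.1%) were called higher in hot3-2 and 185 (58.4%) in hot3-3 (edgeR), against 7.8% and 9.63% of all tested genes, while 9 were called lower in hot3-3. MPC, a maternally expressed gene of the seed's endosperm that encodes the C-terminal part of a poly(A)-binding protein, stayed between 0.748 and 1.49 CPM in the mutants with 1 count in each WT library.

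Members linked to chromatin and transcription were CHR34, HAC2, NAC085, WPP3, ZFP10, AT2G31420 and AT4G10200. CHR34, an SNF2-type ATPase of the chromatin remodelling class, had 1 and 2 counts in WT, 3.89, 5.18 and 3.37 CPM in hot3-2 and 6.63 and 5.53 CPM in hot3-3. HAC2, a CBP-type histone acetyltransferase gene, had no count in WT and 0.663 to 0.911 CPM in hot3-2 and 1.45 and 1.36 CPM in hot3-3. Genes for the related acetyltransferases HAC1, HAC4, HAC5 and HAC12 were called in neither allele, though HAC4 was lower in hot3-2 by less than a doubling (log2 -0.63, edgeR adjusted P = 0.00274). WPP3 encodes a WPP-domain protein, a family at the nuclear envelope, and had 2 and 3 counts in WT, 3.31, 3.55 and 4.95 CPM in hot3-2 and 7.63 and 6.398 CPM in hot3-3. AT2G31420 (B3 domain), ZFP10 and AT4G10200 (TTF-type zinc finger with the dimerization domain of hAT transposases) had lower means in hot3-3 than in hot3-2, at 1.33, 0.633 and 0.806 CPM against 1.61, 0.798 and 1.10 CPM.

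NAC085 and its paralogue NAC044 are transcription factor genes known in DNA damage signalling downstream of SOG1. NAC085 had 2 counts in each WT library and stood at 2.44, 2.41 and 3.21 CPM in hot3-2 and 3.79 and 3.89 CPM in hot3-3. NAC044 was at 3.309 and 3.199 CPM in WT, 141, 153 and 143 CPM in hot3-2 and 231 and 210 CPM in hot3-3, far above NAC085. It was called higher in both alleles (log2 fold changes 5.53 and 6.06, edgeR adjusted P = 9.24e-09 and 6.55e-09). Of the other 13 listed DNA damage genes, 7 (53.9%) were called higher in hot3-2 and 9 (69.2%) in hot3-3 (edgeR), against 7.8% and 9.63% of all tested genes. Their median log2 fold changes were 1.5 and 1.87, where all tested genes had 0.0013 and 0.011.

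AT4G05380, a P-loop ATPase gene of the AAA type, was the second highest of the 56 in hot3-3. It had 3 and 2 counts in WT, 8.16, 13.6 and 11.7 CPM in hot3-2 and 21.1 and 22.9 CPM in hot3-3, a ratio to WT of 78.3 (95% counting interval 33.4 to 242) and 163 (69.8 to 504). AT12CYS-2 encodes a small mitochondrial protein with paired cysteine motifs and had 3 counts in each WT library, 1.57, 0.781 and 0.765 CPM in hot3-2 and 1.05 and 1.01 CPM in hot3-3. Its paralogue AT12CYS-1 was 170.9 CPM on average in WT, 284 CPM in hot3-2 and 302 CPM in hot3-3, below the doubling asked for a call. Of the 15 listed mitochondrial stress genes outside the 56, AT12CYS-1 included, 7 (46.7%) were called higher in hot3-2 and 8 (53.3%) in hot3-3 (edgeR). Of all tested genes, 7.8% and 9.63% were. The median log2 fold changes of the 15 were 0.78 and 1.20. AT4G19570, a DnaJ-domain chaperone gene with 2 counts in each WT library, lay between 1.21 and 1.33 CPM in hot3-2 and at 2.84 and 1.82 CPM in hot3-3.

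AT5G45570 and AT5G28810 are annotated as Ulp1 protease family genes, a SUMO protease domain that some Mutator-type transposable elements also carry. AT5G45570 had 0 and 1 counts in WT, 0.580, 1.35 and 1.17 CPM in hot3-2 and 5.04 and 3.98 CPM in hot3-3. AT5G28810 had none in WT, 0.745, 1.56 and 1.33 CPM in hot3-2 and 2.69 and 3.199 CPM in hot3-3. In both genes the hot3-3 libraries lay above the hot3-2 libraries, as they did in 29.9% of all tested genes. Of the 31-base words of AT5G45570, 86.5% occur elsewhere in the genome, most often in a further Ulp1 family gene, AT5G28235 (41.6% of the words; no count in WT and 0.0510 to 0.199 CPM in the mutants). Of the words of AT5G28810, 33.5% occur elsewhere, and 20.3% occur in AT5G45570. Pairs that fit more than 1 copy equally would be missing from the counts of these genes, because only uniquely mapped pairs were counted.

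Members at the cell surface or in transport were mixed in their allele pattern. RLP43, a receptor-like protein with leucine-rich repeats and no kinase domain, had 2 counts in each WT library, 3.15, 2.27 and 3.37 CPM in hot3-2 and 4.74 and 4.55 CPM in hot3-3. The kinase gene AT3G02810 had none in WT, 2.36, 1.92 and 2.24 CPM in hot3-2 and 5.38 and 3.92 CPM in hot3-3, and the kinase-like gene AT3G03930 had 2 and 2 counts in WT, 0.952, 1.92 and 0.918 CPM in hot3-2 and 3.44 and 3.34 CPM in hot3-3. NRT2:1, the main high-affinity nitrate transporter of roots, had 2 and 1 counts in WT, 5.84, 3.41 and 4.79 CPM in hot3-2 and 3.74 and 1.82 CPM in hot3-3, so the alleles overlapped. The gene of its partner protein NRT3.1 (WR3) was at 18.5 and 14.3 CPM in WT, 48.0, 26.5 and 33.6 CPM in hot3-2 and 20.9 and 18.9 CPM in hot3-3, and was called higher in hot3-2 only (edgeR adjusted P = 0.00244 and 0.404). Its difference between the alleles was -0.94 on the log2 scale (edgeR adjusted P = 0.0340) and was not called. UMAMIT34, of a family that includes amino acid exporters, was nearly level between the alleles, at 0.828 to 0.867 CPM in hot3-2 and 0.897 and 0.807 CPM in hot3-3.

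The remaining members with a described product included enzyme genes, a root hair gene and genes of several other families. GAD3, a glutamate decarboxylase that makes GABA, had 1 count in each WT library, 1.20, 0.710 and 1.38 CPM in hot3-2 and 2.14 and 2.08 CPM in hot3-3. GAD1, GAD2 and GAD4 were called in neither allele. Short of a doubling, GAD1 was higher in hot3-2 and hot3-3 (log2 0.36 and 0.74, edgeR adjusted P = 0.00482 and 0.000120). GAD2 was lower (-0.27 and -0.30, edgeR adjusted P = 0.00969 and 0.00894). RHS14, a root hair specific gene, was at 0.568 to 0.663 CPM in hot3-2 and 1.40 and 1.01 CPM in hot3-3 and is the lowest of the 56 by mean in hot3-2. The cystatin-like AT1G03710 (a protease inhibitor fold), the RING-type ubiquitin ligase gene APD3, the lectin gene AT1G52110, the peroxidase AT2G43480, the leucine-rich repeat genes AT1G47920 and AT5G41830 and the galactosidase-related AT3G24542 and AT5G01080 had means of 0.678 (AT2G43480) to 3.35 CPM (AT5G01080) in hot3-2 and 0.957 (AT2G43480) to 6.09 CPM (AT5G01080) in hot3-3. AT5G01080 had no count in WT, 3.19, 4.12 and 2.75 CPM in hot3-2 and 6.33 and 5.85 CPM in hot3-3. Of these 8, each hot3-3 library was above each hot3-2 library in all but AT5G41830, an order that 29.9% of all tested genes showed. AT5G41830 stood at 1.62, 1.49 and 1.43 CPM in hot3-2 and 2.29 and 1.15 CPM in hot3-3.

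The remaining 15 members are annotated only as uncharacterized proteins. With AT1G30170 and AT5G53230, 17 of the 56 (30.4%) have no described product, against 20.7% of WT-silent and 10.7% of all nuclear genes. AT1G75945 (chromosome 1, 28515245 to 28515916, minus strand) was the highest of the 56 in hot3-2 and had the opposite allele order. It had no count in WT, 16.8, 16.8 and 16.7 CPM in hot3-2, and 2.29 and 2.36 CPM in hot3-3, with nearly no spread inside either allele. Its short coding sequence (TAIR10.1, RefSeq, joined from 2 coding blocks between bases 28515413 and 28515809 of the minus strand) is shown to let the product be read, with the start and stop codons in capitals.

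AT1G75945: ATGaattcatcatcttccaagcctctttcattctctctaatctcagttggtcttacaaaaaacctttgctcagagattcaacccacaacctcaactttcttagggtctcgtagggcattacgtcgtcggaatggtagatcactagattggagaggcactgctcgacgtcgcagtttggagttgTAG

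AT3G29633 was at 6.79, 6.25 and 5.10 CPM in hot3-2 and 8.23 and 6.89 CPM in hot3-3, with 1 count in each WT library. AT3G44405 had 1 and 3 counts in WT, 3.35, 5.61 and 3.62 CPM in hot3-2 and 7.03 and 8.79 CPM in hot3-3. AT3G28899 had 1 count in each WT library, 4.51, 4.47 and 3.57 CPM in hot3-2 and 5.28 and 5.22 CPM in hot3-3. For AT3G44405 and AT3G28899 the hot3-3 libraries were above the hot3-2 libraries, and for AT3G29633 too by a small margin. Of all tested genes, 29.9% showed this order. AT2G07215 was at 2.86 to 4.33 CPM in hot3-2 and 4.94 and 4.78 CPM in hot3-3. The others of this class, AT1G27565, AT2G18721, AT3G13432, AT3G25719, AT3G33528, AT3G54520, AT3G54530, AT5G23115, AT5G30360 and AT5G41763, had means between 0.644 CPM (AT3G25719) and 2.41 CPM (AT5G41763) in hot3-2 and between 1.28 CPM (AT2G18721) and 4.29 CPM (AT5G41763) in hot3-3. AT5G23115 is annotated over only 29 bases, shown whole with its coding part in capitals (TAIR10.1, chromosome 5, 7777595 to 7777623, minus strand).

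AT5G23115: ttcaaagattgATGAACCCTAAGAGTTAA

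Such a feature is shorter than a read, and its 1 and 2 counts in WT against 2.36, 2.91 and 1.73 CPM in hot3-2 and 2.04 and 2.59 CPM in hot3-3 come from reads that also cover its surroundings. Some other counts could include reads of an overlapping gene, because the strand setting of the counting is not given in the sources used here. Of the 56, 9 (16.1%) overlap a gene on the other strand, against 10.14% of WT-silent and 24.6% of all nuclear genes. AT3G28899 lies wholly inside AT3G28900, a ribosomal protein L34e gene at 83.6 and 68.9 CPM in WT, 146 to 152 CPM in hot3-2 and 156 and 163 CPM in hot3-3. AT2G18721 shares 87 of its 108 bases with AT2G18720, annotated to the EF1A/IF2-gamma family, which stood at 0.375 and 0.0970 CPM in WT, 6.53 to 8.16 CPM in hot3-2 and 16.3 and 15.5 CPM in hot3-3. AT2G07215 lies wholly within a long noncoding RNA gene, and AT3G44405 shares 245 bases with another. The part of these overlaps in the members' counts was not tested.

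Near-identical sequence elsewhere in the genome touched a minority of members. Of the 55 genes longer than 100 bases, 40 had under 5% of their 31-base words elsewhere, 25 had none and 8 had over 20%. Besides the Ulp1 pair and AT1G71280 these were AT5G01080 (76.6%), APD3 (76.2%), AT1G27565 (68.5%), AT3G33528 (28.8%) and AT3G24542 (24.1%). AT1G27565 shares its words with AT1G52905, which was at 13.1 and 12.3 CPM in WT, 17.2 to 18.3 CPM in hot3-2 and 19.1 and 22.1 CPM in hot3-3. Pairs that fit a member and a copy equally would be left out, because only uniquely mapped pairs were counted. The effect of this on the members' levels was not tested.

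The rule asked the same of both alleles and did not use the difference between them, which was tested. Its 0.5 CPM floor still acted on each of these libraries, so the test was not fully independent of the choice. The lowest mutant library was hot3-2 replicate 1, 2 or 3 for 16, 15 and 16 members, and hot3-3 replicate 1 or 2 for 5 and 4. The 56 genes were mostly higher in hot3-3. The fitted hot3-3 to hot3-2 difference was positive for 46 and negative for 10 genes, and its median was 0.67 on the log2 scale, against a median of -0.0026 over all tested genes, 49.5% of which were positive. Every hot3-3 library was above every hot3-2 library in 42 of the 56 (75%), where 29.9% of all tested genes showed this order, and below in 2 of the 56 (3.57%, AT1G75945 and AT4G10200), where 17.6% did. The 1255 other genes called higher in both alleles had 74.1% positive differences with a median of 0.14.

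**Figure D3:**
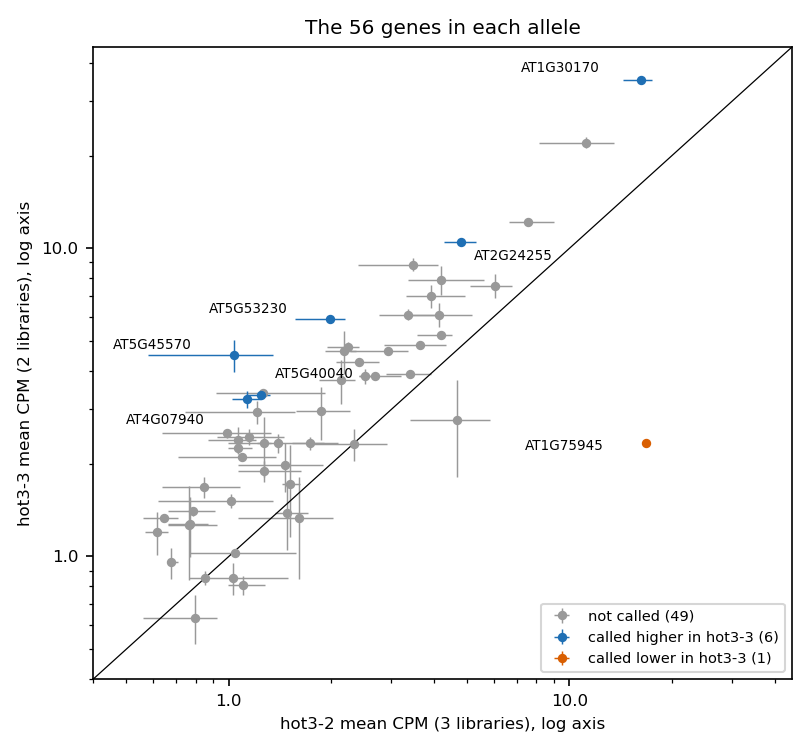
The mean CPM of each of the 56 genes in hot3-3 (2 libraries) against hot3-2 (3 libraries), both on log axes, with the line of equal levels and the called genes marked. Most points lie above the line, and AT1G75945 lies far below it.

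By the same threshold (edgeR's quasi-likelihood test, adjusted P below 0.01 and at least a doubling), 6 of the 56 (10.7%) were called higher in hot3-3 and 1 (1.79%) lower, where 0.856% of all tested genes were called higher and 0.351% lower. AT5G45570 differed most among those higher, by 2.10 ± 0.31 (log2, SE, edgeR adjusted P = 0.00549), followed by AT5G53230 at 1.48 ± 0.22 (0.00533) and AT4G07940 at 1.43 ± 0.22 (0.00699). AT5G40040 differed by 1.37 ± 0.20 (0.00577), AT2G24255 by 1.07 ± 0.18 (0.00936) and AT1G30170 by 1.05 ± 0.10 (0.00144). AT1G75945 was lower in hot3-3, at -2.90 ± 0.13 (5.74e-05). Close to the threshold without a call were AT2G43960 at 1.31 ± 0.22 (edgeR adjusted P = 0.0109), AT4G05380 at 0.94 ± 0.17 (0.0125) and AT3G61340 at 1.04 ± 0.20 (0.0152). NRT2:1 was lower in hot3-3 by an amount that was not called (-0.90 ± 0.32, edgeR adjusted P = 0.120). At an unadjusted p below 0.05 (edgeR), 32 were higher and 2 lower. The share of all tested genes at that level was not worked out, so these counts are only a description.

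The 6 calls depended on the libraries: without hot3-2 replicate 1 or without hot3-2 replicate 3 there were 0, and without any other single mutant library 1 or 2. AT1G75945 was called under all 14 alternative settings and AT1G30170 under 12 of them, against 6 to 8 for the other 5 genes.

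The 56 genes were spread over all 5 chromosomes. By locus number, 9 lay on chromosome 1 (AT1G03710 to AT1G75945), 12 on chromosome 2 (AT2G02000 to AT2G43960), 16 on chromosome 3 (AT3G02810 to AT3G61340), 6 on chromosome 4 (AT4G05380 to AT4G30420) and 13 on chromosome 5 (AT5G01080 to AT5G66830). As a share of the WT-silent genes of each chromosome this was 0.601%, 1.11%, 1.30%, 0.680% and 0.993%. Neighbouring members were a median of 409 genes apart. The closest were AT3G54520 and AT3G54530, which are adjacent uncharacterized genes with 764 bases between them, RLP43 and AT3G28899, 2 genes and 3284 bases apart, and AT5G41763 and AT5G41830, 8 genes and 27754 bases apart. AT3G54520 had no count in WT, 1.45, 1.07 and 1.89 CPM in hot3-2 and 2.34 and 1.61 CPM in hot3-3, and AT3G54530 had 0 and 1 counts in WT, 1.45, 0.923 and 1.07 CPM in hot3-2 and 2.59 and 2.31 CPM in hot3-3, so the alleles overlapped in the first and not in the second. On the chromosome of HOT3, AT1G75945 lay 316 kb from HOT3 and AT1G71280 lay 1961 kb away. The genotype at loci linked to an insertion can differ between lines, and its part in the AT1G75945 levels was not tested.

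**Figure D4:**
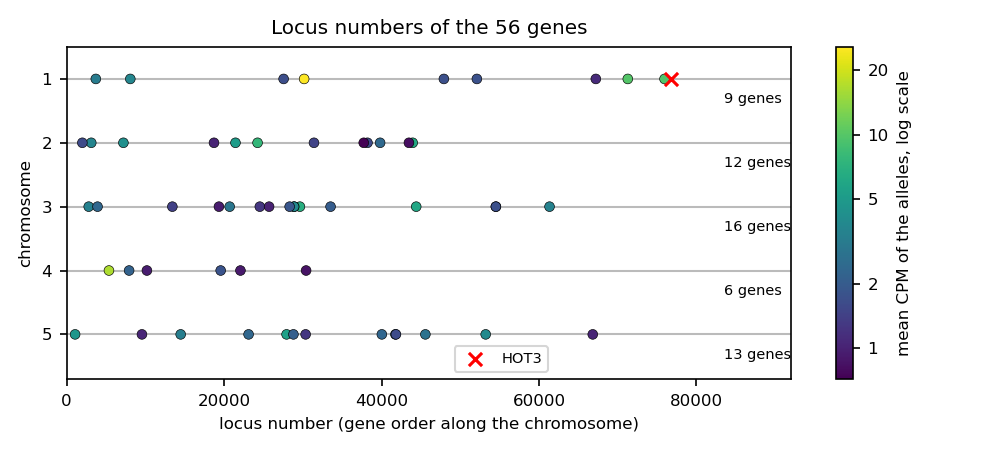
The locus number of each of the 56 genes along the 5 chromosomes, coloured by the mean CPM over the alleles (log scale), with HOT3 as a cross. The genes are scattered, with 6 on chromosome 4 and 16 on chromosome 3.

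In Arabidopsis, pseudogenes and transposable element genes are common in the closed chromatin around the centromeres. Within 100 kb either side of the members, the share of annotated genes that are pseudogenes (a class that includes transposable element genes) had a median of 4.23%, close to the 4.76% of WT-silent genes and above the 3.08% of all nuclear genes. Surroundings with at least 20% pseudogenes were found for 9 of the 56 (16.1%), namely AT2G07215, AT3G29633, AT3G33528, AT3G44405, AT4G05380, AT4G07940, WPP3, AT5G28810 and AT5G30360, against 17.9% of WT-silent and 7.49% of all genes. The members were longer than WT-silent genes in general, with a median exonic length of 1178 against 872 bases (1553 for all genes), and 26.8% had 1 exon against 33.2%. CPM is not scaled by length, so at an equal level per kb a longer gene reaches 0.5 CPM more easily. The rule itself can thus favour longer genes. Their longest was HAC2 with 4212 bases.

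Of 109 neighbours that are not members, 71 could be tested, and 13 (18.3%) were called higher in hot3-2 and 12 (16.9%) in hot3-3, with 1 called lower in each (edgeR, neighbours looked up after the members' values were known), where 7.8% and 9.63% of all tested genes were called higher. Without WT replicate 2 the hot3-2 count was 8. Among the neighbours called higher in both alleles were AT4G19580, a DnaJ-domain gene beside AT4G19570, and AT1G47915, an F-box gene beside AT1G47920. Both had no count in WT, and their fitted log2 differences, 6.53 and 7.37 for AT4G19580 and 6.39 and 6.96 for AT1G47915, depend on the prior count. AT5G41765, a storekeeper-related regulator beside AT5G41763, had at most 6 counts in a WT library and log2 differences of 4.33 and 5.06. The gene that was lower beside a member was HCF136, a photosystem II assembly factor beside AT5G23115, with log2 differences of -1.01 and -1.35.

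Upstream sequence was searched in the 300 bases before each annotated start, on either strand (TAIR10.1 genome and RefSeq annotation). Site II (TGGGCC or TGGGCT) and the telo-box (AAACCCTA) are elements known from plant ribosomal protein gene promoters. Site II letters were found for 19 of the 56 (33.9%), against 12.6% of WT-silent genes, 20.8% of all nuclear genes and 32.3% of the other genes called higher in both alleles. The telo-box was found for 8 of the 56 (14.3%), against 8.63%, 5.21% and 8.84%. Upstream GC content had a median of 33.2% for the members, 30.7% for WT-silent and 31.3% for all genes.

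The windows shown next hold several site II or telo-box matches, or belong to a member whose values are given above, and were picked after the search. Each ends at the base before the annotated start, and has site II and telo-box letters in capitals on whichever strand they occur. AT5G40040 lies on chromosome 5 (16030336 to 16030455, minus strand), AT3G28330 and AT3G20710 on chromosome 3 (10587760 to 10587899 and 7239150 to 7239289, both minus strand), AT1G71280 on chromosome 1 (26872153 to 26872292, minus strand), AT2G43960 on chromosome 2 (18204913 to 18205052, minus strand) and AT12CYS-2 on chromosome 5 (2970418 to 2970497, plus strand).
AT5G40040: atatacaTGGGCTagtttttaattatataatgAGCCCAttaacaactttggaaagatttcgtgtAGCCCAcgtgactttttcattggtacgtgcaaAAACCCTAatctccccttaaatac
AT3G28330: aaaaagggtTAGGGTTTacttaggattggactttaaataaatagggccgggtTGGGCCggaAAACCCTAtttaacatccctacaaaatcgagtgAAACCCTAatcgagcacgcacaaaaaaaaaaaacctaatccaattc
AT3G20710: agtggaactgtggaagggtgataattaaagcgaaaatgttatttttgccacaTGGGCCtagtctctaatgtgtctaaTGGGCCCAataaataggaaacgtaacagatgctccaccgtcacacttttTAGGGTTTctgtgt
AT1G71280: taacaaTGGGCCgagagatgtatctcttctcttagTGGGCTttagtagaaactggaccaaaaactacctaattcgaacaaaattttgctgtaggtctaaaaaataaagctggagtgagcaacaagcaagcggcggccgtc
AT2G43960: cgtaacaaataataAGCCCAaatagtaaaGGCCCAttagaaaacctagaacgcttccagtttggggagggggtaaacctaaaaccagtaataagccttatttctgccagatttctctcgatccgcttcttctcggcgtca
AT12CYS-2: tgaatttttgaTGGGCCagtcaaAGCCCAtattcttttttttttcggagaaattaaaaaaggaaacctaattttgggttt

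The mitochondrial dysfunction motif, bound by NAC factors that relay mitochondrial stress to the nucleus, was matched upstream of 4 of the 56 (7.14%), against 2.13% of WT-silent genes, 1.37% of all genes and 3.35% of the other genes called higher in both alleles. The palindrome of the kind bound by SOG1 (CTTNNNNNNNAAG) was matched for 11 (19.6%), against 13.5%, 11.4% and 12.2%. The motifs overlap, and 3 of the 4 mitochondrial motif matches (HAC2, AT2G03130 and AT5G53230) are also palindrome matches, while AT3G61340 holds a palindrome match elsewhere in its window. The W-box core (TTGAC) of WRKY factors was found for 21 (37.5%), against 50.2%, 50.4% and 54.5%. The G-box (CACGTG) was found for 4 (7.14%), close to the 7.09% of all genes. It was found for 3.61% of WT-silent genes and 5.58% of the other genes called higher in both alleles. A match is a description of letters and no evidence of binding.

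The 4 windows with the mitochondrial motif are shown with it in capitals, and the AT5G53230 window also has its telo-box in capitals: AT5G53230 on chromosome 5 (21598708 to 21598847, plus strand), AT2G03130 on chromosome 2 (940547 to 940606, plus strand), AT3G61340 on chromosome 3 (22702531 to 22702590, minus strand) and HAC2 on chromosome 1 (25145417 to 25145586, plus strand).
AT5G53230: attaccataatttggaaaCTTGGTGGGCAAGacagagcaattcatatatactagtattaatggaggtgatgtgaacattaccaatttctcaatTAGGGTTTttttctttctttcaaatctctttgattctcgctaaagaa
AT2G03130: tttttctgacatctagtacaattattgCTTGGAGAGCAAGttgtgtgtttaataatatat
AT3G61340: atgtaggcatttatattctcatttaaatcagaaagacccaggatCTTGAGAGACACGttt
HAC2: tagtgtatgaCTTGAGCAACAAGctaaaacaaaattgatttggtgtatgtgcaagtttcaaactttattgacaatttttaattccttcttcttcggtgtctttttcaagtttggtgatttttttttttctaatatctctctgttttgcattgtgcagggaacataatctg

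**Figure D5:**
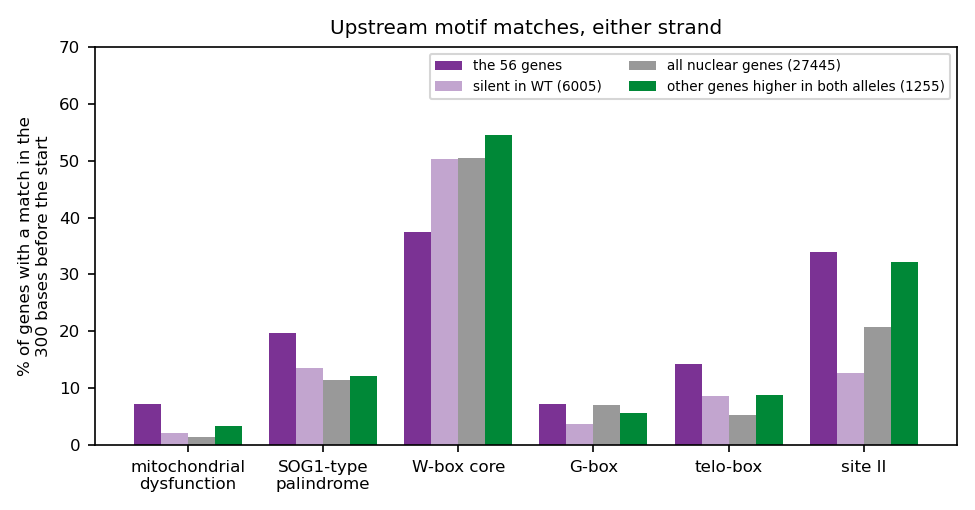
The share of genes with each motif in the 300 bases before the start (percent, either strand), for the 56 genes, the 6005 WT-silent genes, all 27445 nuclear genes and the 1255 other genes called higher in both alleles. Site II stands at 33.9% in the 56 genes and 12.6% in WT-silent genes, and the W-box core at 37.5% and 50.2%.

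Markers of other organs were read beside these genes, since many of the 56 could be used in an organ or stage that whole seedlings hold in small amounts. Of 7 root genes, all tested, 2 were called higher in hot3-2 and 3 in hot3-3 (28.6% and 42.9%, against 7.8% and 9.63% of all tested genes), with summed levels of 40.9 to 43.0 CPM in WT, 50.3 to 52.2 CPM in hot3-2 and 59.5 to 62.4 CPM in hot3-3. Without WT replicate 1 the root counts were 0 and 1. NRT2:1 and RHS14 are root genes, and the part of the root share in their levels was not tested. Of 14 seed maturation genes 11 were tested, and AT1G21970 (LEC1) was at 0 in every library. In hot3-3, 4 (36.4%) were called higher (0 without WT replicate 1), against 9.63% of all tested genes. In hot3-2, 2 were called lower, where 3.88% of all tested genes were. The summed seed level was 59.8 to 137 CPM in WT, 30.3 to 56.4 CPM in hot3-2 and 246 to 419 CPM in hot3-3. Most of the hot3-3 sum came from CRA1 (143 and 227 CPM) and CRU3 (75.9 and 134 CPM), which were also the 2 genes called lower in hot3-2. CRU2, SESA2, SESA3, OLEO2, EM1, GEA6 and ABI3 were called in neither allele. The part of the seed share in the levels of MPC was not tested. Of 6 anther and pollen genes 1 was tested and not called and 3 were at 0 in every library. Of 8 floral organ genes 5 were tested, with 1 called lower in hot3-2 and 3 in hot3-3. Of all tested genes, 3.88% and 4.91% were called lower.

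Of 3 genes known to be silenced by DNA methylation in WT plants, SDC, FWA and QQS, none is among the 56. SDC and FWA, 2 of the 3 (66.7%), were called higher in each allele, against 7.8% and 9.63% of all tested genes. QQS was at 3.25 and 3.68 CPM in WT and was called in neither allele (log2 fold changes -0.50 in hot3-2 and 0.44 in hot3-3). SDC, an F-box gene, was at 0.312 and 0.291 CPM in WT, 2.36, 2.27 and 2.40 CPM in hot3-2 and 1.55 and 1.67 CPM in hot3-3 (log2 fold changes 2.99 and 2.39, edgeR adjusted P = 4.30e-05 and 0.000234). SDC and QQS missed the rule by their WT counts. FWA had no count in WT and passed the mutant limit in hot3-3 (0.897 and 0.951 CPM), but not in hot3-2 (0.455, 0.497 and 0.357 CPM).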

How the data were processed

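Polyadenylated RNA of 18-day-old seedlings (4 ug of DNase-treated total RNA per library) was sequenced with a directional kit. The deposited values are counts per gene, made by the authors with cutadapt 4.2, STAR 2.7.10b and featureCounts 2.0.3 (submitters' processing notes) on TAIR10, from properly and uniquely mapped pairs. The tables also list a length per gene, deposited by the authors as another value. Genes with no count are kept in them.

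The rule was applied to the counts, with CPM (counts per 1000000) over each library's total. Members, lists and relatives were chosen with earlier results of these data known. All genes were fitted with edgeR 4.0.16 in R 4.3.3 (filterByExpr, TMM, quasi-likelihood F test, all 7 libraries), and P was adjusted by Benjamini-Hochberg over the 20795 tested genes. A call needed adjusted P below 0.01 and a log2 fold change of at least 1. The script was tested on simulated data. Positions, promoters and coding sequence came from the TAIR10.1 RefSeq annotation, which held 27445 of 27445 nuclear ids, 99.36% with the deposited length. The 210 chloroplast and mitochondrial ids were left out of the rule. All 56 members are named. The rule for those described in detail took the 12 highest by mean level, the 5 largest called allele differences in each direction, families with at least 3 members, members within 3 Mb of HOT3 or within 3 genes of another, members of the gene lists, and those at the limits; other members with a described role were added after their values were seen. Alternatives were other rule limits, DESeq2 1.42.0 and its size factors, no filter, 2 groups only, thinning, a replicate block and each library left out. Replicate libraries differed by more than sampling noise (chi-square per gene 2.58 to 18.9).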

Additional observations from a re-analysis of the deposited data

Results flagged for a closer look

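The tested difference between the mutant alleles passed the threshold (edgeR's quasi-likelihood test, adjusted P below 0.01 and at least a doubling) in 7 of the 56 genes. On the log2 scale, hot3-3 minus hot3-2, AT5G45570 (Ulp1 protease family) stood at 2.10, AT5G53230 (DUF295) at 1.48, AT4G07940 (CWC22-like) at 1.43 and AT5G40040 (60S acidic ribosomal protein) at 1.37. AT2G24255 (F-box) stood at 1.07 and AT1G30170 (DUF295) at 1.05. AT1G75945, an uncharacterized gene 316 kb from HOT3, stood at -2.90, the reverse order.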

How the results depend on the processing

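The number of genes chosen moved with the limits. At most 0, 1 or 10 WT counts gave 12, 28 and 207 genes, at least 0.25 or 1 CPM in the mutants gave 121 and 33, hot3-3 as the only mutant gave 137, and leaving out 1 library in turn gave 58 to 92 (92 without WT replicate 2). Against 6 members called higher in hot3-3 than in hot3-2, there were 18 at adjusted P below 0.05 with no fold limit, 2 after thinning to the smallest library, 1 with the replicate block and 0 to 8 with 1 library left out. The share of all tested genes called was not worked out for these alternatives. The 1 lower call was made in every setting. The direction was steadier: 46 to 48 of the 56 were positive, with a median of 0.63 to 0.73. With the block, 53 and 55 members were called higher than WT in hot3-2 and hot3-3. Same-numbered libraries deviated together weakly, with correlations of 0.0314 to 0.181. The highest, 0.181 and 0.151, were between hot3-2 and hot3-3. These values do not settle whether libraries of the same number share an effect, and the main fit did not pair them. The 7 genes called between the alleles, AT2G43960, AT4G05380, AT3G61340 and NRT2:1 kept their direction in all 14 settings. Depth limits the WT side, where 3 counts already equal 0.145 to 0.187 CPM.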
